A study of Mus musculus with 4 samples.

Results

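The cytosolic ribosomal protein genes encode the proteins of the large and the small subunit of the ribosome. Members were the protein-coding genes with a mouse symbol of Rpl or Rps followed by a digit, together with Rplp0, Rplp1, Rplp2 and Rpsa. Symbols starting with Rps6k, the symbol Rps19bp1 and symbols with -ps were left out. This gave 85 of the 48709 genes counted, of which 52 belong to the large and 33 to the small subunit. The study asked what the aspartic protease DDI2 does in the liver, and liver RNA of untreated C57BL/6 mice was sequenced as 4 libraries. The 2 WT libraries came from littermate controls that carry floxed Ddi2 without Cre recombinase. The 2 libraries labelled DDI2-KO came from DDI2 flox/flox mice with Cre under the albumin promoter, so that deletion is directed to cells of the hepatocyte lineage and other liver cells keep the gene. Mice of both sexes and of a range of young ages were used, and the sex and age behind each library are not given in the sources used here.

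Each ribosome holds a single copy of most ribosomal proteins, and the genes that encode them are transcribed at high rates in nearly all cells. Their mRNAs begin with a C followed by a run of pyrimidines, the terminal oligopyrimidine or TOP motif, through which mTOR signalling and Larp1 control their translation. In the liver they supply the capacity to make plasma proteins. Ribosomal protein mRNAs have also been copied back into the mouse genome many times as processed pseudogenes, so short reads from them often match several places.

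The targeted gene Ddi2 was counted 4749 and 3812 times in WT and 4068 and 3777 times in the libraries labelled DDI2-KO. Its level was 132 ± 12.6 CPM (SD, n = 2) in WT against 161 ± 5.08 CPM (SD, n = 2) in DDI2-KO, where CPM are counts scaled to a common library size with edgeR's TMM factors, with a log2 fold change of 0.28 (adjusted p = 0.349 by edgeR with Benjamini-Hochberg, standard error 0.17). DDI2-KO counts of Ddi2 were thus no lower than WT counts once scaled, and a count over the whole gene cannot check the loss of a floxed exon. In what follows DDI2-KO stands for the libraries so labelled. Reads on genes numbered 34109018 and 31532247 for WT replicates 1 and 2, and 25582344 and 22501208 for DDI2-KO replicates 1 and 2. Albumin, which marks hepatocytes, stood at 134336 and 154514 CPM in WT and 122331 and 128426 CPM in DDI2-KO. Replicate 1 of DDI2-KO stood apart by few reads on pseudogene copies of the members, and the DDI2-KO libraries differed from each other in the level of transcripts rich in G and C. Values without each of them are therefore given.

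Summed over the 85 members, 149353 and 158553 reads were counted in WT and 149583 and 110352 in DDI2-KO. As a share of reads on genes the WT libraries gave 0.438% and 0.503% and the DDI2-KO libraries 0.585% and 0.490%. The sums overlapped, with replicate 2 of DDI2-KO between the WT libraries. The large subunit genes took 0.242% and 0.279% of reads in WT and 0.317% and 0.265% in DDI2-KO. The small subunit genes took 0.195% and 0.224% in WT and 0.268% and 0.226% in DDI2-KO. Rpl4, a protein that lines the exit tunnel of the large subunit, took the most reads in each library, with 15309 and 16492 in WT and 12306 and 10969 in DDI2-KO. In liver tissue, fewer cells of a type and less RNA per cell cannot be told apart.

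Levels per length were compared as CPM per kilobase of the annotated coding transcript, taking the mean of the group means. Over the 80 members that passed the filter on low counts the median was 38.1 CPM per kilobase. Rpl32, of the large subunit, was highest on average, with 278 and 335 in WT and 454 and 395 in DDI2-KO, followed by Rpl4, Rps18, Rps15 and Rpl22. Rps18, which sits in the head of the small subunit, had 239.5 and 287 in WT and 333 and 269 in DDI2-KO CPM per kilobase. For Rpl4 the values were 296 and 347 in WT and 309 and 310.2 in DDI2-KO. Rps15 had 227 and 257 in WT and 298 and 189 in DDI2-KO, and Rpl22 had 182 and 200.4 in WT and 303 and 264 in DDI2-KO. The groups overlapped for Rpl4, Rps18 and Rps15 and did not for Rpl32 and Rpl22. Their order was the same in both WT libraries, where Rpl4 came first, and differed in the DDI2-KO libraries, where Rpl32 came first. At the other end stood Rps23, a protein of the decoding centre, with 0.476 and 0.552 in WT and 0.495 and 0.975 in DDI2-KO CPM per kilobase. Rpl27 had 1.31 and 0.58 in WT and 1.45 and 0.921 in DDI2-KO. Rps27 had 1.12 and 1.5 in WT and 1.79 and 1.01 in DDI2-KO, Rpl28 had 1.26 and 1.52 in WT and 1.64 and 1.38 in DDI2-KO, and Rpl36a had 1.78 and 2.95 in WT and 1.76 and 2.07 in DDI2-KO. These low members rested on few reads, with 15 and 16 WT reads and 12 and 21 DDI2-KO reads for Rps23. The highest of these levels per length was 585 times the lowest.

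The levels were set beside the share of each transcript that other genes also hold. Of the 50-base stretches of a member's transcript, the median share that also occurred in annotated transcripts of other genes was 52.9%, and for 45 of the 85 members it was over 50%. Across the 80 members tested, level per length and this share had a Spearman correlation of -0.34, a description over genes that share the same libraries. For Rps27 it was 98.6%, mostly with its near copy Rps27rt, and for Rps6 84.6%. Rps18 was high with 86.7%, and Rps23 and Rpl28 were low with 48.4% and 34.5%. Per kilobase of stretches of 50 bases not found elsewhere, the ratio of highest to lowest was 1820.4. The chosen transcript of Rps15a had 5130 bases and that of Rps20 3706, far over the median of 756, so their levels per length are low by construction. A level here is a level of uniquely placed reads.

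**Figure D1:**
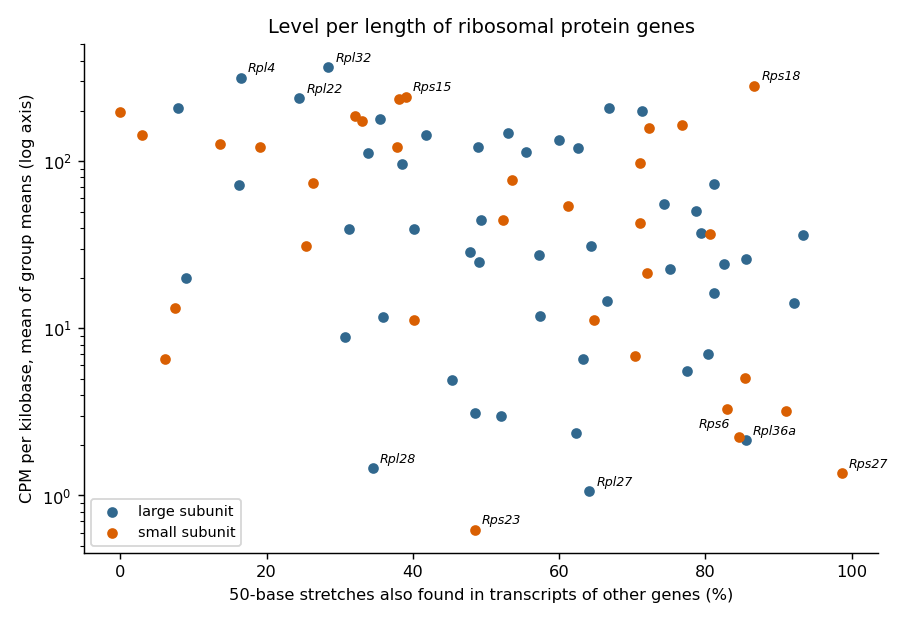
Level per length (CPM per kilobase, log axis) of the 80 members tested against the percent of 50-base stretches also found in annotated transcripts of other genes, by subunit. Members run from Rps23 at 0.624 to Rpl32 at 365 CPM per kilobase, and of the 5 lowest Rpl28 has the smallest share.

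The 5 members that did not pass the filter were Rpl3l, Rpl10l, Rpl39l, Rpl24 and Rps29. In the order WT 1, WT 2, DDI2-KO 1 and DDI2-KO 2, Rpl24 had 5, 1, 4 and 6 reads and Rps29 had 1, 1, 4 and 0. Rpl3l had 0, 1, 0 and 0 reads, Rpl39l had 1, 0, 1 and 2 and Rpl10l had 0 in each, where 3 counts, the smallest level taken as detectable, correspond to 0.088 to 0.133 CPM. Rpl3l, Rpl10l and Rpl39l are paralogs known from muscle and testis, whereas Rpl24 and Rps29 are standard parts of the ribosome. Of the exon bases of Rpl24, 47% overlapped another gene on the same strand, Gm28037, and reads in such overlaps are not given to either gene. No direction is drawn for these 5.

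Between the groups, more members were higher in DDI2-KO than lower. Of the 80 members tested, 11 were higher and 2 lower by edgeR's quasi-likelihood test at a threshold of 0.05, with p-values adjusted by the method of Benjamini and Hochberg over all 13699 genes tested. Over all genes tested 2.53% were called, 1.33% higher and 1.2% lower, against 16.2% of the members. The median log2 fold change of the members was 0.30 and that of all genes tested -0.01. Fitted with offsets for transcript length and GC content, these medians were 0.15 and -0.02. Individual members ran from -1.20 for Rps6 to 2.22 for Rpl22l1, with 58 above and 22 below 0. Both DDI2-KO libraries lay above both WT libraries for 34 members, or 42.5%, against 28% of all genes tested. They lay below both for 12 members, or 15%, against 27.7% of all genes. Members have short transcripts, and the 824 protein-coding genes tested with a transcript under 1000 bases had a median of 0.13, with 5.1% called. The 61 members among them had a median of 0.31, with 16.4% called. Among these short genes 37.7% lay higher in both DDI2-KO libraries than in both WT libraries and 20.4% lower, against 41% and 13.1% of the 61 members, so the share of members that lay higher was near that of short genes.

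These counts turned on single libraries. Without WT replicate 1 there were 3 members called and without WT replicate 2 also 3, against 14 without DDI2-KO replicate 1 and 22 without DDI2-KO replicate 2. In the same 4 fits 153, 203, 344 and 631 genes were called in all, against 346 with all libraries, so the counts over all genes moved as well. Without DDI2-KO replicate 1 the split was 7 higher and 7 lower, and without DDI2-KO replicate 2 it was 19 higher and 3 lower. The median log2 fold change of the members was 0.18 and 0.38 without WT replicates 1 and 2, and 0.12 and 0.44 without DDI2-KO replicates 1 and 2. It kept its sign in each of these fits but not its size. Another tool, DESeq2, called 25 members, and limma-voom and limma-trend called 4 each. Rpl22l1, Rpl30, Rps15a and Rps26 were the 4 in both, and also the 4 called by edgeR without robust estimation. With upper-quartile factors 8 members were called and 317 genes in all, with no filter on low counts 28 and 1544, and with the replicate numbers as a block 21 and 1108. By DESeq2 932 genes were called in all, by limma-voom 136, by limma-trend 139 and without robust estimation 152.

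**Figure D2:**
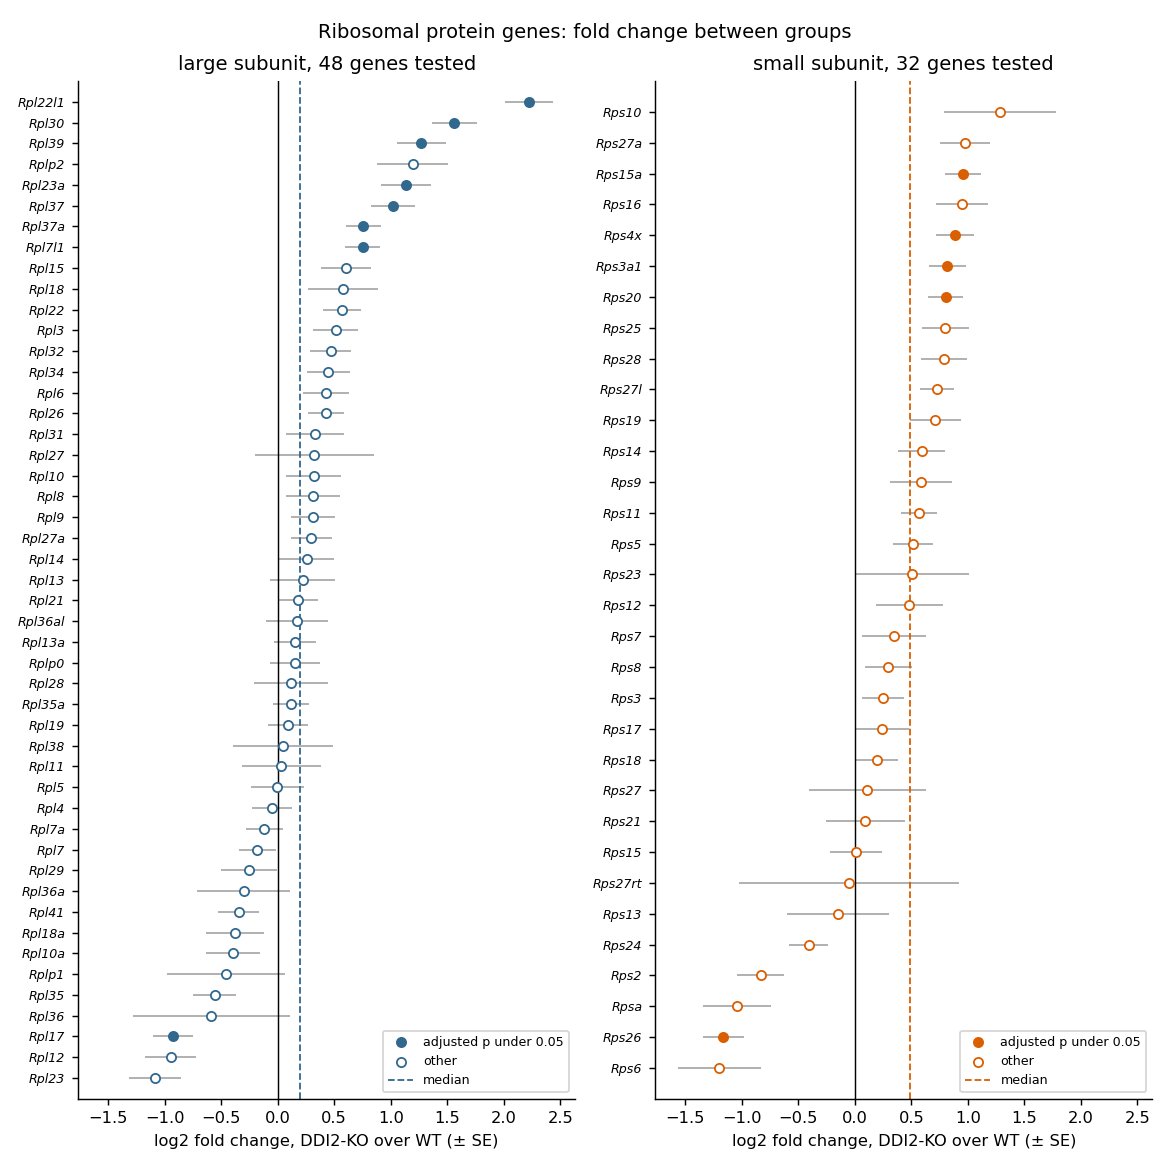
Log2 fold change (DDI2-KO over WT) with its standard error for the 48 large and 32 small subunit genes tested, with 2 libraries in each group. Filled points have an adjusted p under 0.05 in edgeR's test and dashed lines mark the medians, 0.20 for the large and 0.49 for the small subunit.

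The largest difference among the members was that of Rpl22l1, a paralog of the large subunit protein Rpl22 (chr3:28805436-28807424 on the plus strand, GRCm38). It had 4.52 and 6.21 CPM in WT and 25.6 and 24.4 CPM in DDI2-KO. Both DDI2-KO libraries were far above both WT libraries and close to each other, with means of 5.36 ± 1.2 CPM (SD, n = 2) in WT against 25 ± 0.846 CPM (SD, n = 2) in DDI2-KO. It rose with a log2 fold change of 2.22 (adjusted p = 0.00939 by edgeR with Benjamini-Hochberg, standard error 0.21). Rpl30, a large subunit protein at the interface of the subunits (chr15:34440505-34443640 on the minus strand), had 7.34 and 9.06 CPM in WT and 26.4 and 22.1 CPM in DDI2-KO. The groups were again apart, with means of 8.2 ± 1.21 CPM (SD, n = 2) in WT against 24.2 ± 3.08 CPM (SD, n = 2) in DDI2-KO and a log2 fold change of 1.56 (adjusted p = 0.0185 by edgeR with Benjamini-Hochberg, standard error 0.20). The exons of Rpl30 overlap D730044K07Rik on the other strand over 20.4% of their bases. The strand setting of the counting is not given in the sources used here, so whether such overlaps removed reads is not known. Both genes were called in each of the 17 alternatives run for them.

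Rpl39, a small protein of the exit tunnel (chrX:37082520-37085402 on the minus strand), had 23.7 and 28.2 CPM in WT and 74.7 and 50.5 CPM in DDI2-KO. The DDI2-KO libraries differed from each other more than the WT libraries did, yet both were above them, with a log2 fold change of 1.27 (adjusted p = 0.0365 by edgeR with Benjamini-Hochberg, standard error 0.22). Rpl37, of the large subunit, had 21.1 and 22 CPM in WT and 50.7 and 36.6 CPM in DDI2-KO, with a log2 fold change of 1.02 (adjusted p = 0.0431 by edgeR with Benjamini-Hochberg, standard error 0.19). Rps15a, of the small subunit, had 22.5 and 23.3 CPM in WT and 47.2 and 41.7 CPM in DDI2-KO, with a log2 fold change of 0.96 (adjusted p = 0.0337 by edgeR with Benjamini-Hochberg, standard error 0.16). Rps4x, encoded on the X chromosome, had 104 and 111 CPM in WT and 186 and 211 CPM in DDI2-KO. For none of these 4 members did the groups overlap. Rps4x rose with a log2 fold change of 0.88 (adjusted p = 0.0437 by edgeR with Benjamini-Hochberg, standard error 0.17).

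Rpl7l1, a paralog of Rpl7 with a role in ribosome assembly, had 36.9 and 40.7 CPM in WT and 67.3 and 63.3 CPM in DDI2-KO, and its log2 fold change was 0.75 (adjusted p = 0.0472 by edgeR with Benjamini-Hochberg, standard error 0.15). The other 4 members called higher were Rpl23a, Rpl37a, Rps3a1 and Rps20, which were chosen to be named after their values were seen. Rpl23a, which docks nascent-chain factors at the tunnel exit, had 7.52 and 9.58 CPM in WT and 21.6 and 15.9 CPM in DDI2-KO, and Tlcd1 on the other strand overlaps 59.7% of its exon bases. Rpl37a had 39.6 and 40.2 CPM in WT and 71.2 and 63.5 CPM in DDI2-KO. Rps3a1 had 65.8 and 72.7 CPM in WT and 115 and 129.7 CPM in DDI2-KO, and Rps20 had 34.6 and 37.3 CPM in WT and 66.2 and 59.2 CPM in DDI2-KO. In all 4 both DDI2-KO libraries were above both WT libraries, with log2 fold changes of 0.80 for Rps20, 0.76 for Rpl37a, 0.82 for Rps3a1 and 1.13 for Rpl23a. Among the 11 members called higher, those called also without WT replicate 1 were Rpl22l1 and Rpl30, and without WT replicate 2 Rpl22l1, Rpl30 and Rpl39. Without DDI2-KO replicate 1, Rpl23a, Rpl37, Rpl37a, Rpl7l1 and Rps20 were not called, and without DDI2-KO replicate 2 Rps3a1 was not. With upper-quartile factors Rpl23a, Rpl37a, Rpl7l1, Rps20 and Rps3a1 were not called, and with a filter at a mean of 1 CPM Rpl37a, Rpl7l1 and Rps3a1 were not. Across the 4 fits that leave out a library, the lowest log2 fold change among the 11 was 0.67, for Rpl37a. With upper-quartile factors the lowest was 0.70, for Rpl7l1.

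Rps10 and Rplp2 had log2 fold changes among the 5 highest without passing the test. Rps10, a protein of the small subunit's head, had 4.34 and 5.01 CPM in WT and 16.9 and 5.78 CPM in DDI2-KO. Replicate 2 of DDI2-KO was near the WT libraries and replicate 1 far above, and the log2 fold change was 1.28 (adjusted p = 0.201 by edgeR with Benjamini-Hochberg, standard error 0.50). The log2 fold change of Rps10 was 0.31 without DDI2-KO replicate 1, and 1.86 and past the threshold without DDI2-KO replicate 2. Rplp2, an acidic protein of the stalk, had 4.37 and 6.02 CPM in WT and 15.3 and 8.48 CPM in DDI2-KO, again with replicate 1 of DDI2-KO the highest, and a log2 fold change of 1.20 (adjusted p = 0.0816 by edgeR with Benjamini-Hochberg, standard error 0.31). That of Rplp2 was 0.71 without DDI2-KO replicate 1, and 1.56 and past the threshold without DDI2-KO replicate 2.

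Rps26 and Rpl17 were the 2 members called lower. Rps26, which lies at the mRNA exit channel of the small subunit (chr10:128624534-128626747 on the minus strand), had 105 and 123 CPM in WT and 56 and 45.6 CPM in DDI2-KO. Its level fell below the WT range in both DDI2-KO libraries, from 114 ± 13.2 CPM (SD, n = 2) in WT to 50.8 ± 7.33 CPM (SD, n = 2) in DDI2-KO, with a log2 fold change of -1.16 (adjusted p = 0.0295 by edgeR with Benjamini-Hochberg, standard error 0.18). Rpl17, a protein at the mouth of the exit tunnel, had 45.2 and 56.4 CPM in WT and 25 and 28.5 CPM in DDI2-KO, with a log2 fold change of -0.93 (adjusted p = 0.0437 by edgeR with Benjamini-Hochberg, standard error 0.18). Both DDI2-KO libraries were below both WT libraries, with means of 50.8 ± 7.92 CPM (SD, n = 2) in WT against 26.8 ± 2.51 CPM (SD, n = 2) in DDI2-KO. Rps26 was not called without WT replicate 2 (log2 fold change -1.04), with a log2 fold change between -1.32 and -1.02 over the fits that leave out a library. Rpl17 was called without DDI2-KO replicate 2 and in none of the other fits that leave out a library, where its log2 fold change was -1.07 and -0.76 without WT replicates 1 and 2 and -0.83 without DDI2-KO replicate 1.

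**Figure D3:**
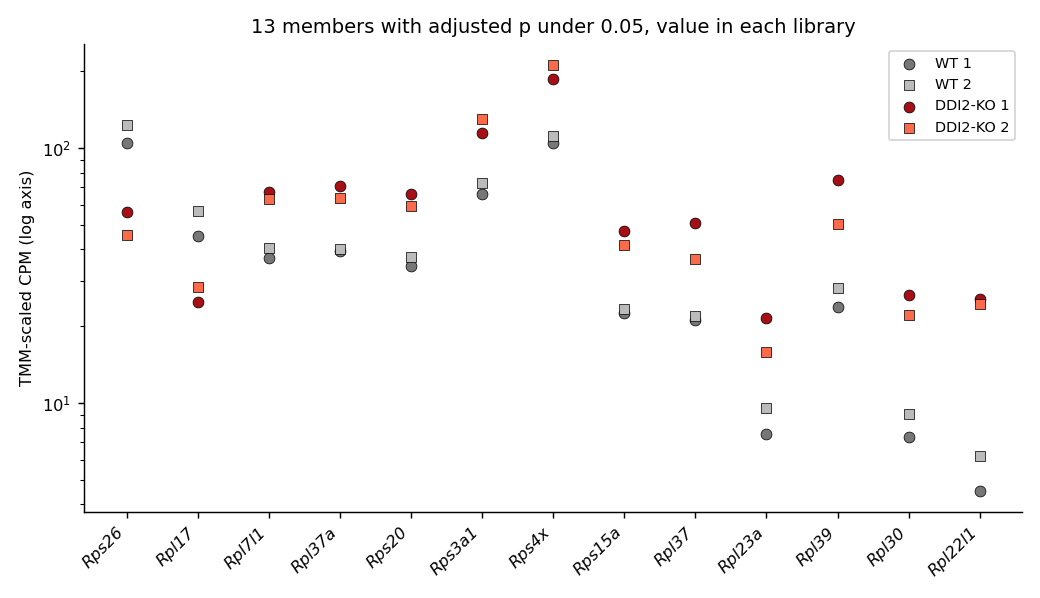
TMM-scaled CPM (log axis) in each of the 4 libraries for the 13 members called by edgeR's test. WT libraries are grey and DDI2-KO libraries red, circles stand for replicate 1 and squares for replicate 2, and for none of the 13 do the groups overlap.

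Further members with low values in DDI2-KO did not pass the test. Rps6, the protein that S6 kinases phosphorylate downstream of mTOR, had 81 and 96 WT reads and 39 and 20 DDI2-KO reads. That was 2.41 and 3.11 CPM in WT and 1.51 and 0.87 CPM in DDI2-KO, with the groups apart but on few reads, and the log2 fold change was -1.20 (adjusted p = 0.106 by edgeR with Benjamini-Hochberg, standard error 0.37). Rpl23, on the face of the large subunit that meets the small subunit, had 147 and 177 CPM in WT and 92.5 and 60 CPM in DDI2-KO and a log2 fold change of -1.09 (adjusted p = 0.0536 by edgeR with Benjamini-Hochberg, standard error 0.23). Rpsa, also known as the laminin receptor, had 148 and 185 CPM in WT and 106 and 56 CPM in DDI2-KO and a log2 fold change of -1.04 (adjusted p = 0.105 by edgeR with Benjamini-Hochberg, standard error 0.30). Rpl12, at the base of the stalk, had 35.4 and 46.3 CPM in WT and 25.1 and 17.3 CPM in DDI2-KO and a log2 fold change of -0.95 (adjusted p = 0.0665 by edgeR with Benjamini-Hochberg, standard error 0.23). In all 4, replicate 2 of DDI2-KO was the lowest library. Without DDI2-KO replicate 1, Rpl23, Rpsa and Rpl12 passed the threshold, with log2 fold changes of -1.43, -1.57 and -1.23. Without DDI2-KO replicate 2 they did not, with -0.80, -0.65 and -0.70, and Rps6 did not pass in either fit, with -1.65 and -0.86.

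The subunits were compared by their medians. The median log2 fold change was 0.20 over the 48 large subunit genes tested and 0.49 over the 32 small subunit genes. The large median was 0.12 and 0.32 without WT replicates 1 and 2, and 0.05 and 0.34 without DDI2-KO replicates 1 and 2. For the small subunit the same fits gave 0.37 and 0.61, and 0.33 and 0.56. Of the large subunit genes 7 were called higher and 1 lower, and of the small subunit genes 4 higher and 1 lower. So 16.7% and 15.6% were called, against 2.53% of all genes tested, 1.33% higher and 1.2% lower. Relative to the WT mean, the median of the large subunit genes was -0.12 and 0.12 on the log2 scale in the WT libraries and 0.27 and 0.07 in DDI2-KO. Replicate 2 of DDI2-KO thus lay below WT replicate 2, and the groups overlapped. For the small subunit genes the medians were -0.10 and 0.10 in WT and 0.53 and 0.29 in DDI2-KO, without overlap. Their summed CPM did overlap, with 1982 and 2285 in WT and 2649 and 2208 in DDI2-KO, where replicate 2 lay between the WT libraries. The ratio of summed large to summed small subunit reads was 1.24 and 1.24 in WT and 1.18 and 1.17 in DDI2-KO. The ratios were close within each group and did not overlap between them. Such sums weigh genes by their reads, and the large subunit gene Rpl4 alone took much of them. It held 10.3% and 10.4% of the reads on members in WT and 8.23% and 9.94% in DDI2-KO. The part of Rpl4 in the ratio was not tested, so the ratio does not stand for the subunit as a whole. The large median minus the small median was -0.29 on the log2 scale. Pooling the reads of annotated pseudogene copies with their member, an alternative chosen after seeing the data, moved it to -0.13, with medians of 0.18 and 0.30. Members of a subunit are not replicates, and with 2 libraries a group no test of this difference was made.

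**Figure D4:**
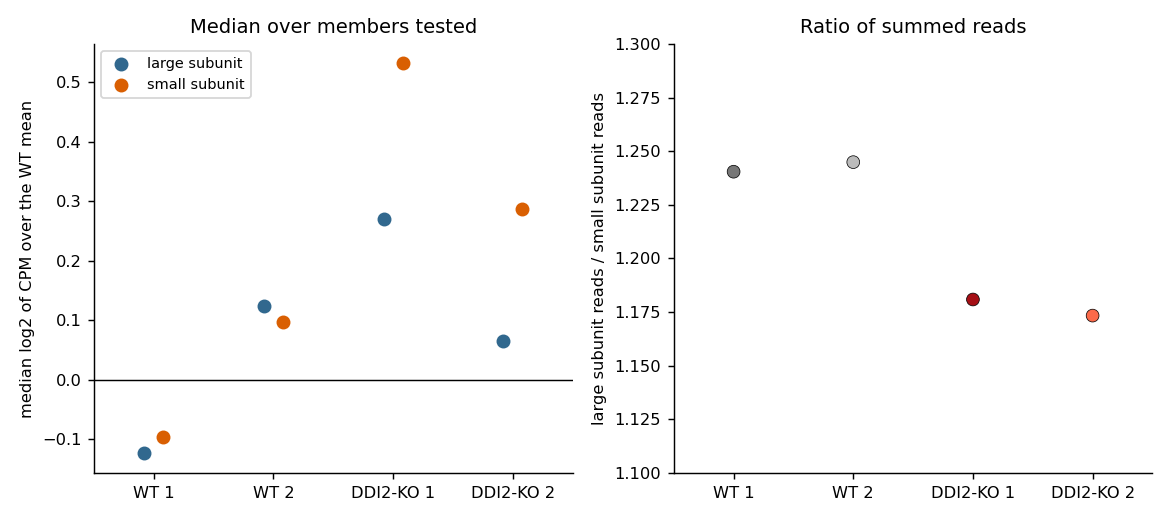
Left, the median over large and small subunit genes of the log2 ratio of CPM to the WT mean, in each library. Right, the ratio of summed large to summed small subunit reads in each library, which lies between 1.17 and 1.24 on an axis that does not start at 0.

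By role, the members of the stalk that recruits translation factors had log2 fold changes of both signs. Rplp0, its scaffold, had 175 and 196 CPM in WT and 246 and 165 CPM in DDI2-KO and a log2 fold change of 0.15 (adjusted p = 0.72 by edgeR with Benjamini-Hochberg, standard error 0.22). Rplp1 had 67 and 86.7 CPM in WT and 82.6 and 29.3 CPM in DDI2-KO, where replicate 2 of DDI2-KO alone was low. Its log2 fold change of -0.46 was -1.39 and past the threshold without DDI2-KO replicate 1, and 0.11 without DDI2-KO replicate 2. With Rplp2 and Rpl12 above, the 4 stalk genes had a median log2 fold change of -0.15 and 0 were called by edgeR, with 2 at an unadjusted p under 0.05 and 2 called by DESeq2. Of all 13699 genes tested, 3216 had an unadjusted p under 0.05. Rpl5 and Rpl11, which bind 5S RNA and hold the p53 regulator Mdm2 when assembly is disturbed, had overlapping groups, with 7.28 and 5.43 CPM in WT and 5.87 and 6.83 CPM in DDI2-KO for Rpl5. For Rpl11 they were 1.69 and 2.23 CPM in WT and 2.43 and 1.57 CPM in DDI2-KO. Their log2 fold changes were -0.00 and 0.03, and edgeR called 0, with 0 at an unadjusted p under 0.05 and 0 called by DESeq2.

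Of the 8 genes listed for the exit tunnel, through which the new chain leaves, Rpl39 and Rpl23a were called higher and Rpl17 lower, with a median of 0.21. These 3 stand beside 13 of all 80 members and 2.53% of all genes tested. Of the 6 genes of the decoding centre and mRNA entry, 0 were called by edgeR, with 2 at an unadjusted p under 0.05 and 2 called by DESeq2, and the median was 0.38. They ran from Rps2 at -0.83 to Rps27a at 0.98. Rps27a is made as a fusion with ubiquitin and had 8.2 and 10.3 CPM in WT and 21.1 and 15.2 CPM in DDI2-KO. Over the fits that leave out a library, the log2 fold change of Rps27a ran from 0.72 to 1.20. Fau, made as a fusion of a ubiquitin-like protein with a small subunit protein, falls outside the rule by its symbol and had 16.2 and 19.8 CPM in WT and 17 and 8.92 CPM in DDI2-KO. The groups of Fau overlapped, with replicate 2 of DDI2-KO the lowest, and its log2 fold change was -0.47 (adjusted p = 0.376 by edgeR with Benjamini-Hochberg, standard error 0.30). Rack1, a scaffold on the small subunit that also falls outside the rule, had 187 and 231 CPM in WT and 363 and 286 CPM in DDI2-KO and a log2 fold change of 0.63 (adjusted p = 0.116 by edgeR with Benjamini-Hochberg, standard error 0.20).

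Some members have paralogs, and some of these paralogs can take their place in the ribosome. Of 6 paralogs tested, Rps4l among them, 2 were called higher, Rpl22l1 and Rpl7l1, with a median log2 fold change of 0.45. Of 9 partners 2 were called higher, Rpl39 and Rps4x, with a median of 0.43. These counts stand beside 16.2% of all members and 2.53% of all genes tested. Rpl22 had 86.1 and 95 CPM in WT and 144 and 125 CPM in DDI2-KO, with both DDI2-KO libraries above both WT libraries, and its log2 fold change was 0.57 (adjusted p = 0.099 by edgeR with Benjamini-Hochberg, standard error 0.17). Rpl7 had 183 and 189 CPM in WT and 159 and 169.7 CPM in DDI2-KO and a log2 fold change of -0.18, against 0.75 for Rpl7l1. Rps27l, known as a p53 target, had 53.1 and 56.4 CPM in WT and 90.5 and 90.7 CPM in DDI2-KO. The groups were apart, and its log2 fold change of 0.73 (adjusted p = 0.0514 by edgeR with Benjamini-Hochberg, standard error 0.15) was just outside the threshold. It was 0.73 and inside it without DDI2-KO replicate 2. Its partner Rps27 had 13 and 16 WT reads and 16 and 8 DDI2-KO reads, and the near copy Rps27rt had 41 and 37 WT reads and 4 and 51 DDI2-KO reads. Rps27rt was thus low in replicate 1 of DDI2-KO alone, and its log2 fold change was 0.88 without that library and -2.93, past the threshold, without DDI2-KO replicate 2. Rpl36al had 2.79 and 3.72 CPM in WT and 3.32 and 4 CPM in DDI2-KO and Rpl36a 0.862 and 1.42 CPM in WT and 0.85 and 1 CPM in DDI2-KO, overlapping in both. The remaining partners had log2 fold changes of 0.51 for Rpl3, 0.32 for Rpl10 and 0.43 for Rpl26, none of them called. With each library left out they ran from 0.30 to 0.71 for Rpl3, 0.04 to 0.66 for Rpl10 and 0.35 to 0.51 for Rpl26. Rps4l, annotated as a transcribed pseudogene and so outside the rule, had 3.12 and 5.31 CPM in WT and 3.28 and 2.22 CPM in DDI2-KO.

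The TOP motif is defined at the start of the mRNA, and the sequence around the annotated start was therefore read for the members called. Promoters from RefSeq (GRCm38.p6) matched 65 of the 85 members by symbol, with 77 entries. A start was counted as TOP-like where a C followed by at least 4 bases of C or T lay within 5 bases of it. This held for 30 of the 65 members and for 32 of their 77 promoters, or 41.6%, against 18.3% of the 32851 promoters in the table. It held for 17 of 40 large and 13 of 25 small subunit genes. Of the 8 members called higher that were matched, 3 had it, as did Rps26 among those called lower. Rpl17, Rpl23a, Rpl30 and Rps20 were not matched. The 30 bases from 12 before the annotated start are given 5′ to 3′ for the members called, with the TOP-like run in capitals and no capitals where the rule found none.
Rpl22l1, chr3:28805496-28805525, plus strand: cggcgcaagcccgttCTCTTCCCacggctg
Rpl39, chrX:37085205-37085234, minus strand: aagctccgCCTCTagcgacttcttctaatc
Rps15a, chr7:118116130-118116159, minus strand: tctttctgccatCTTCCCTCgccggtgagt
Rps26, chr10:128626489-128626518, minus strand: gggcaagccgccggatCCTCTTTCgagtct
Rpl37, chr15:5116601-5116630, plus strand: ttcctgggcggaagcttatccacaggaagt
Rps4x, chrX:102189374-102189403, minus strand: aggctgggcggagcaacccaggctccagcg
Rpl37a, chr1:72711248-72711277, plus strand: cgctcgccggtctaaaaccgcgcatgcgca
Rps3a1, chr3:86142651-86142680, minus strand: aagccggaagggcgaaagagcaagggtcac
Rpl7l1, chr17:46782639-46782668, minus strand: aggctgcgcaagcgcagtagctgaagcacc
The absence of a run says only that these letters are not at this annotated start, which can lie some bases from the start used in liver. The letters CCGGAAG, the core bound by ETS factors such as Gabpa, occurred on either strand between 250 bases before and 50 after the start in 27 of the 77 promoters, or 35.1%, against 8.86% of all promoters in the table. This motif was chosen after the data had been seen, and a match is a description of the sequence.

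Libraries of the same group also differed in the members. In DDI2-KO, 58 of the 80 members tested were lower in replicate 2 than in replicate 1, with a median log2 ratio of -0.32. In WT, 72 of the 80 were higher in replicate 2 than in replicate 1, with a median of 0.23. The medians over all genes tested were 0.00 in WT and -0.00 in DDI2-KO. Across the 80 members, the ratio of the DDI2-KO libraries had a Spearman correlation of -0.50 with the GC content of the transcript, and across all genes tested with a known transcript -0.50. The same correlation for the WT libraries was 0.28 over the members and 0.07 over all genes. These are descriptions across genes that share libraries, not tests. Against WT replicates 1 and 2, the correlation over the members was -0.06 and -0.13 for replicate 1 of DDI2-KO and -0.39 and -0.46 for replicate 2. Over all genes tested it was 0.23 and 0.20 for replicate 1 and -0.13 and -0.17 for replicate 2, so both DDI2-KO libraries departed from WT, in opposite directions. The 5 members that differed most between the DDI2-KO libraries, chosen after their values were seen, were Rps27rt, Rpl36, Rplp1, Rps10 and Rps21. Rps27rt, with a GC content of 46%, was higher in replicate 2 and the others were lower there. Rpl36, with a GC content of 60.8%, had 6.39 and 8.54 CPM in WT and 8.07 and 1.78 CPM in DDI2-KO. Rps21, with 52.5%, had 27.6 and 29 CPM in WT and 41.3 and 18.9 CPM in DDI2-KO. In Rpl36, Rplp1 and Rps21 the groups overlapped and replicate 2 of DDI2-KO was the lowest library, whereas in Rps10 both DDI2-KO libraries lay above WT. With offsets for length and GC content the median log2 fold change of the members was 0.15, with 0.06 for the large and 0.38 for the small subunit. With these offsets 19 members were called, among them all 13 called without them. The offsets cover length and GC content together, and the part of GC content alone in single members was not tested.

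**Figure D5:**
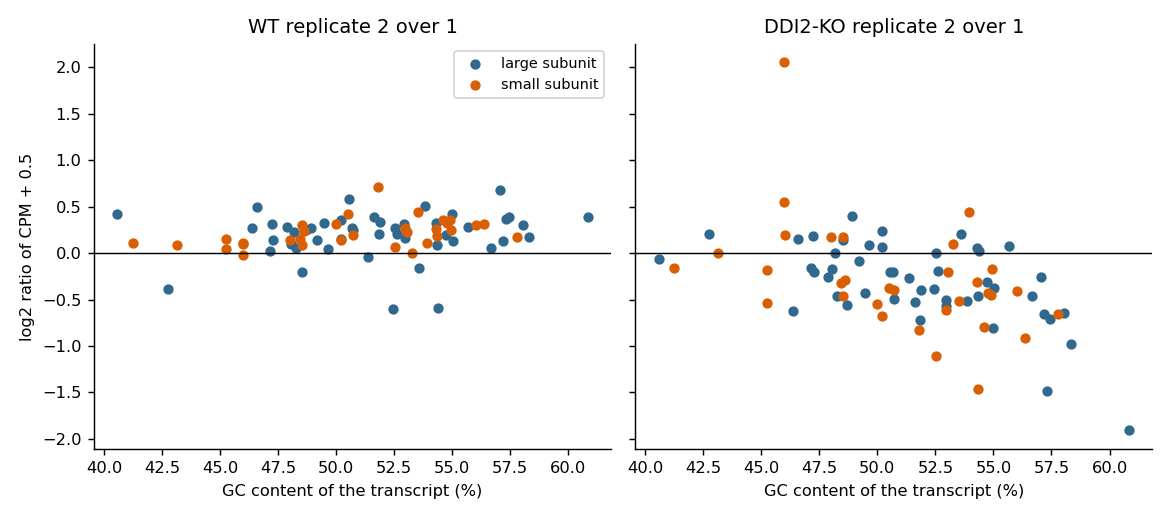
Log2 ratio of replicate 2 to replicate 1 (CPM + 0.5) against GC content of the transcript for the 80 members tested, in WT (left) and DDI2-KO (right). In DDI2-KO the ratio lies lower at high GC content (Spearman correlation -0.50), and in WT it does not (Spearman correlation 0.28).

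Reads that fall on copies of the members were counted for the 400 annotated pseudogenes that hold at least 10% of a member's 50-base stretches. They took 1920 and 2160 reads in WT and 516 and 2036 in DDI2-KO, or 1.29%, 1.36%, 0.345% and 1.85% of the reads on members. Replicate 1 of DDI2-KO was the lowest in reads and in share, and replicate 2 had the highest share. Alignments at several sites, which were not counted, relative to reads on genes, came to 65.8% and 51.8% in WT and 49.2% and 47.3% in DDI2-KO, and how many of them came from members was not tested. Reads outside annotated genes, on the same scale, came to 5.11% and 4.7% in WT and 2.53% and 3.65% in DDI2-KO, and reads that matched more than 1 gene to 2.5% and 2.54% in WT and 3.49% and 3.66% in DDI2-KO. In all 3 of these measures the groups did not overlap, and their part in the values of the members was not tested. With copies pooled, a choice made after the data were seen, 16 of 82 members were called, among them all 13 called without pooling, and Rps29 then held 146 and 151 WT reads against 22 and 72 DDI2-KO reads. The 44 members tested with over 50% of stretches found elsewhere had a median log2 fold change of 0.19, with 4 called higher and 1 lower. The other 36 had a median of 0.46, with 7 higher and 1 lower. So 11.4% and 22.2% were called, against 2.53% of all genes tested.

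Genes that work with the members were read from the same fit. Of 18 translation factors and other proteins whose mRNAs also carry a TOP motif, 1 was called higher and 0 lower, with a median log2 fold change of 0.08. It was Eif3f, a subunit of the initiation factor that binds the small subunit, with 48.6 and 47.6 CPM in WT and 84.1 and 87.3 CPM in DDI2-KO and a log2 fold change of 0.83 (adjusted p = 0.0403 by edgeR with Benjamini-Hochberg, standard error 0.15). Eif3f was not called without WT replicate 1 or 2, with log2 fold changes of 0.85 and 0.82, nor by limma. Of 70 ribosome assembly genes tested, 0 were called by edgeR, with 17 at an unadjusted p under 0.05, 3 called by DESeq2 and 0 by either limma test. The 17 were near the share of all genes tested, 3216 of 13699. The median of the 70 was 0.15, and 30 had both DDI2-KO libraries above WT and 12 both below. These were 42.9% and 17.1%, against 28% and 27.7% of all genes tested, and near the 42.5% and 15% of the members. Of 25 regulators of ribosomal protein genes and their translation, among them Mtor, Larp1, Myc and Gabpa, 0 were called by edgeR, with 4 at an unadjusted p under 0.05 and 0 called by DESeq2 or limma, where the 4 were a smaller share than over all genes. Their median was -0.21, with 16 of 25 lower in both DDI2-KO libraries than in both WT libraries and 3 higher, where 27.7% and 28% of all genes were.

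Markers of liver cell types were read beside the members, since cell types differ in their share of ribosomal protein mRNA. The 11 hepatocyte genes found summed to 181787 and 201489 CPM in WT and 168784 and 170374 in DDI2-KO, with a median log2 fold change of -0.20. The 11 Kupffer cell genes, led by Cd5l, summed to 1023 and 867 CPM in WT and 1089.6 and 888 in DDI2-KO. The sums were 624 and 568 CPM in WT and 589.5 and 554 in DDI2-KO for 9 sinusoidal endothelial genes, led by Fcgr2b, of which 1 was called lower. For 10 stellate cell genes, led by Dcn, they were 686 and 753 CPM in WT and 634 and 611 in DDI2-KO. For 7 cholangiocyte genes, led by Spp1, they were 78.7 and 76.8 CPM in WT and 87.9 and 88 in DDI2-KO. Most of these cholangiocyte sums was Spp1, with 51.9 and 46.3 CPM in WT and 64.1 and 62.4 CPM in DDI2-KO. Of the 6 cholangiocyte genes tested, 4 had a log2 fold change above 0 and 2 below. The 12 lymphocyte genes, led by Ighm, summed to 57.3 and 71.6 CPM in WT and 71.2 and 73.7 in DDI2-KO. Ighm alone had 12 and 20.8 CPM in WT and 33.8 and 30.8 CPM in DDI2-KO, while 9 of the 12 had a log2 fold change below 0, with a median of -0.23. The 7 neutrophil genes, led by Csf3r and with Ly6g at 0, summed to 7.61 and 7.25 CPM in WT and 7.34 and 6.31 in DDI2-KO. The 6 erythroid genes, led by Hbb-bs, summed to 109.5 and 210.3 CPM in WT and 79.3 and 68.3 in DDI2-KO, with 1 called lower. Hepatocyte, stellate and erythroid sums were lower in both DDI2-KO libraries than in both WT libraries and cholangiocyte sums higher, and the sums of the other 4 lists overlapped.

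Mitochondrial and nuclear RNAs were read in the same way. Of 7 genes of the mitochondrial genome tested 3 were called lower, and the 13 listed summed to 106536 and 101033 CPM in WT and 52092 and 61974 in DDI2-KO, with mt-Co1 the most abundant and mt-Atp8, mt-Co2, mt-Co3 and mt-Nd4l at 0. Of 5 RNAs that stay in the nucleus 3 were called lower, and they summed to 740.3 and 537 CPM in WT and 97 and 219 in DDI2-KO. The most abundant in WT was Xist, made from the inactive X chromosome of female cells, with 519.8 and 373 CPM in WT and 47.5 and 143 CPM in DDI2-KO. The sex of the mice behind each library, and its part in the values of the X-linked members Rpl10, Rpl36a, Rpl39 and Rps4x, was not tested. Of these, Rpl39 and Rps4x were called higher. Rpl10 and Rpl36a, with log2 fold changes of 0.32 and -0.30, were not called. The mitochondrial and the nuclear sum were lower in both DDI2-KO libraries than in both WT libraries. The part of cell types, of mitochondrial RNA and of nuclear RNA in the values of the members was not tested. With mitochondrial genes and Alb left out of the library sizes, 13 members were called and their median log2 fold change was 0.29.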

How the data were processed

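Liver RNA of 2 WT mice and 2 mice labelled DDI2-KO was sequenced by the study after poly(A) selection as stranded libraries. The deposited values are raw read counts per gene, which the authors made, per the submitters' processing notes, with cutadapt 1.8, STAR 2.5.2b and HTSeq 0.6.1 on GRCm38, counting uniquely placed reads. The gene annotation and the strand setting behind the counts are not given in the sources used here. Groups and replicates were taken from the labels, and replicate numbers were not used to pair libraries except in 1 alternative. Gene names, positions and transcripts came from a GENCODE annotation of GRCm38, in which 48349 of 48709 gene IDs were found.

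Counts were filtered with filterByExpr, scaled by TMM and tested with the quasi-likelihood test of edgeR 4.0.16 (robust estimation, R 4.3.3) across 13699 genes, 2 against 2, with p-values adjusted by the method of Benjamini and Hochberg. Called means an adjusted p under 0.05. Levels below 3 counts were taken as not detectable, and this floor covers counting error only. Alternatives, whose effect is given in the closing section, were other scalings, filters and library sizes, DESeq2 1.42.0, limma 3.58.1 (voom and trend), a replicate block, offsets for length and GC content, each library left out, and, chosen after seeing the data, pseudogene copies pooled with their member. The 50-base stretches of each member were looked up in annotated transcripts of other genes, not in the genome.

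Genes named were Ddi2, the members called (the 6 with the smallest p in each direction), the 5 members highest and lowest in log2 fold change and in level per length, Rps6, Rplp0, Rpl5, Rpl11, Rpsa, the listed paralogs and their partners, and called genes of the pathway lists. Other genes were picked with their values in view. The members and lists were chosen with earlier results of these data known.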

Additional observations from a re-analysis of the deposited data

How the results depend on the processing

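The median log2 fold change of the members stayed above 0 in each alternative run, and the large median stayed below the small median. With offsets for length and GC content the median over the members was 0.15, against 0.30 without them. Leaving out each library gave 0.12 to 0.44. The number of genes called did not stay the same, and the cause was not tested. Against 13 members and 346 genes in all, DESeq2 called 25 members and 932 genes in all, limma-voom 4 members and 136 genes in all, limma-trend 4 members and 139 genes in all, edgeR with no filter on low counts 28 members and 1544 genes in all, and edgeR with no robust estimation 4 members and 152 genes in all. A replicate block gave 21 members and 1108 genes in all. At an adjusted p under 0.1, edgeR with Benjamini-Hochberg called 24 members and 1281 genes in all. With offsets for length and GC content 808 genes in all were called and 19 members. Upper-quartile factors gave 8 members and 317 genes in all, and leaving out members mostly found elsewhere 8 members. A filter at a mean of 1 CPM gave 10 members of 77 and 285 genes in all. RLE size factors gave 13 members and 362 genes in all, library totals 14 and 378, TMM without the ribosomal protein genes 13 and 344, and library sizes without mitochondrial genes and Alb 13 and 330. Without paralog members 11 were called, and with pseudogene copies pooled 16. Groups did not overlap for 46 members, against 45 with RLE size factors, 44 with upper-quartile factors and 49 with library totals. With TMM factors the groups overlapped for 34 of 80 members and for 6064 of all 13699 genes tested, so these shares were near each other. Leaving out each library in turn gave 3 to 22 members and 153 to 631 genes in all. The library left alone in its group is then assumed to vary like the others. The large median minus the small median, -0.29 on the log2 scale, was -0.25 by limma-voom, -0.23 by limma-trend, -0.13 with pseudogene copies pooled, an alternative chosen after seeing the data, and -0.29 to -0.22 with each library left out. The ratio of the highest to the lowest level per length was 1820.4 per stretch of 50 bases not found elsewhere, against 585 per transcript length and 672 per stretch of 100 bases not found elsewhere. Of the comparisons for named genes, 21 changed sign, none of them for a called member. The log2 fold change of Rpl5 was 0.0442 with library totals, 0.00208 by limma-voom, 0.00876 by limma-trend, 0.00498 with no filter, 0.0055 with a replicate block, 0.0185 with offsets and -0.20 to 0.23 with each library left out. That of Rpl11 was -0.0204 with upper-quartile factors, -0.14 with offsets and -0.32 to 0.32 with each library left out. Rplp0 had -0.0281 with offsets and -0.16 to 0.42 with each library left out. Over the same fits Rplp1 ran from -1.39 to 0.11, and Rps27rt had 0.00176 with library totals and -2.93 to 0.88. With each library left out Rpl36al ran from -0.0226 to 0.39, Rpl36a from -0.62 to 0.0987 and Rps27 from -0.37 to 0.46. Stretches found elsewhere were searched in annotated transcripts, not in the genome. Depth limits what can be said of members with few reads, such as Rps23 and Rps27.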

Other observations

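Symbols that begin like those of the members but are annotated as pseudogenes held fewest reads in replicate 1 of DDI2-KO. The 268 processed pseudogenes with such a symbol held 795 and 928 reads in WT, 140 in replicate 1 and 809 in replicate 2 of DDI2-KO. The 8 transcribed processed pseudogenes held 181 and 250 reads in WT, 108 in replicate 1 and 132 in replicate 2 of DDI2-KO. Counts for Rps16-ps2, chosen after its values were seen, were 102 and 124 in WT and 5 and 100 in DDI2-KO, and for Rpl39-ps 103 and 121 in WT and 10 and 98 in DDI2-KO.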
